A study of Homo sapiens with 18 samples.

Results

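The genes described here encode the proteasome, the protease complex that degrades ubiquitin-tagged proteins. They are 32 listed genes, all of them measured, of 18334 genes on the arrays. They were chosen by symbol, as every array feature that the probe annotation gives to a listed gene, and not by how they behaved. The list holds 7 genes of the 20S alpha ring, 7 of the 20S beta ring, 5 of the 19S ATPases and 11 other 19S genes, with the activator PSME4 and the assembly factor POMP. The 32 genes had 51 features, and 17 genes had only 1.

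RNA came from K562 cells, a long-established line from a patient with chronic myelogenous leukaemia that has erythroid features, and it was the only line used. Cells received 6 µM heteronemin, a sesterterpenoid of marine sponges, or the same volume of DMSO at 0 h. They received 10 ng/mL TNFalpha, an inflammatory cytokine, or water at 2 h, and were harvested at 6 h, so every sample had carried both additions or their vehicles. The 3 comparisons were TNFalpha-treated against untreated cells, heteronemin-treated against untreated cells, and cells given both agents against TNFalpha-treated cells. Each had 3 biological replicates on 6 two-colour Agilent arrays, with the dyes exchanged between the 2 arrays of a replicate. Every value below is a log2 ratio of treated over control, so no level of any gene is given, and the marker genes of K562 cells and of other blood cells could be read only as ratios. Of 12 such markers measured, 0 passed the test in any comparison, where 0%, 4.87% and 6.55% of all genes did in the 3 comparisons.

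The 20S core is a barrel of stacked rings: the outer alpha rings gate the entrance and the inner beta rings hold the catalytic sites. The 19S particle caps the barrel. Its ATPases unfold the substrate and its other subunits bind and remove ubiquitin, while POMP helps the beta subunits assemble. When proteasomes are inhibited, many cells respond by transcribing nearly all proteasome genes together, a bounce-back driven by the transcription factor NRF1 (gene NFE2L1) at antioxidant response elements in their promoters. The comparisons with heteronemin ask whether such a rise was present after 6 h.

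Promoter sequence shows which of the 32 genes carry letters of such an element. The 9-base core TGACNNNGC, reverse complement GCNNNGTCA, was searched on both strands from 250 bases before to 50 bases after each gene start in RefSeq promoters of build GRCh38.p14. It was present in 9 of the 27 genes with a promoter entry (33.3%), against 4384 of 27305 genes in all (16.1%). PSMA7, PSMB1, PSMB6, PSMB7 and PSMD4 had no entry. The windows below hold the matches that lie upstream of the start in the orientation of the gene, with the match in capitals.
PSMA4: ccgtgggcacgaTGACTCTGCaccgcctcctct
PSMB3: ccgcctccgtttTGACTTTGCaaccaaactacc
PSMD3: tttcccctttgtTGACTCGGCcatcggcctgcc
PSMD5: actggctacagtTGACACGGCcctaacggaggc
PSMD9: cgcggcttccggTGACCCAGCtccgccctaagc
PSMD12: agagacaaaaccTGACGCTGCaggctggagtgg
The PSMA4 window is chr15:78540648-78540680 on the plus strand, with the match starting at position −126 from the gene start. The PSMB3 window is chr17:38752625-38752657, plus strand, position −104. The PSMD3 window is chr17:39980758-39980790, plus strand, position −37. The PSMD5 window is chr9:120843036-120843068, minus strand, position −134. The PSMD9 window is chr12:121888676-121888708, plus strand, position −102. The PSMD12 window is chr17:67366722-67366754, minus strand, position −165. The other matches, in PSME4, PSMD1, PSMC4 and a further one each in PSMD3 and PSMD9, lay on the opposite strand or after the start. A match is a description of these letters and not a site of binding, and no match was found in the windows of POMP and PSMA3.

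Replicate 1 stood apart in spread. Over all genes the log2 ratios had an SD of 0.329 in replicate 1 of heteronemin against untreated cells, against 0.195 and 0.163 in replicates 2 and 3. With both agents the SD was 0.384, 0.215 and 0.172. Means that moved by over 1.5 times without replicate 1 are given with and without it for the proteasome genes printed by replicate under heteronemin or both agents. A gene was called when limma's Benjamini-Hochberg adjusted p, taken over all 18334 genes, was under 0.05.

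TNFalpha alone left the proteasome genes near a ratio of 0. None of the 32 genes was called, and 0 of them had an unadjusted p under 0.05 with limma, where 0% of all genes were called and 315 genes had an unadjusted p under 0.05. Even the gene with the highest mean of all, at 4.28, was not called, so a lack of calls says little here. The means ran from −0.17 for PSMD2, a scaffold subunit of the 19S base, to 0.10 for PSMD6, a lid subunit. The median over the 32 genes was 0.0084, against −0.00053 over all genes. All 3 replicates were above 0 for 2 of the 32 genes, where 13.3% of all genes were, and all below 0 for 4, where 12.4% were.

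In the alpha ring PSMA1 had 0.15, 0.05 and −0.03 in replicates 1 to 3, and PSMA3 had 0.10, −0.02 and −0.28. Both lay on either side of 0. In the beta ring the non-catalytic PSMB3 had 0.08, 0.01 and 0.17, and PSMB5, the chymotrypsin-like catalytic subunit, had −0.05, 0.06 and 0.19. Among the ATPases PSMC3 had −0.21, −0.02 and −0.13, and PSMC6 had 0.23, −0.05 and −0.06. PSMC3 was below 0 in each replicate, with a mean of −0.12 ± 0.10 (SD, n = 3) and an adjusted p of 0.999968 by limma. PSMD2 had −0.37, 0.0014 and −0.13, PSMD6 had 0.19, −0.02 and 0.14, and POMP had −0.04, −0.01 and −0.04. PSME4 had −0.09, −0.0076 and −0.14. The 95% intervals of the 32 means lay between −0.45, the lower bound of PSMD2, and 0.32, the upper bound of PSMD6. All 32 intervals held 0.

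**Figure D1:**
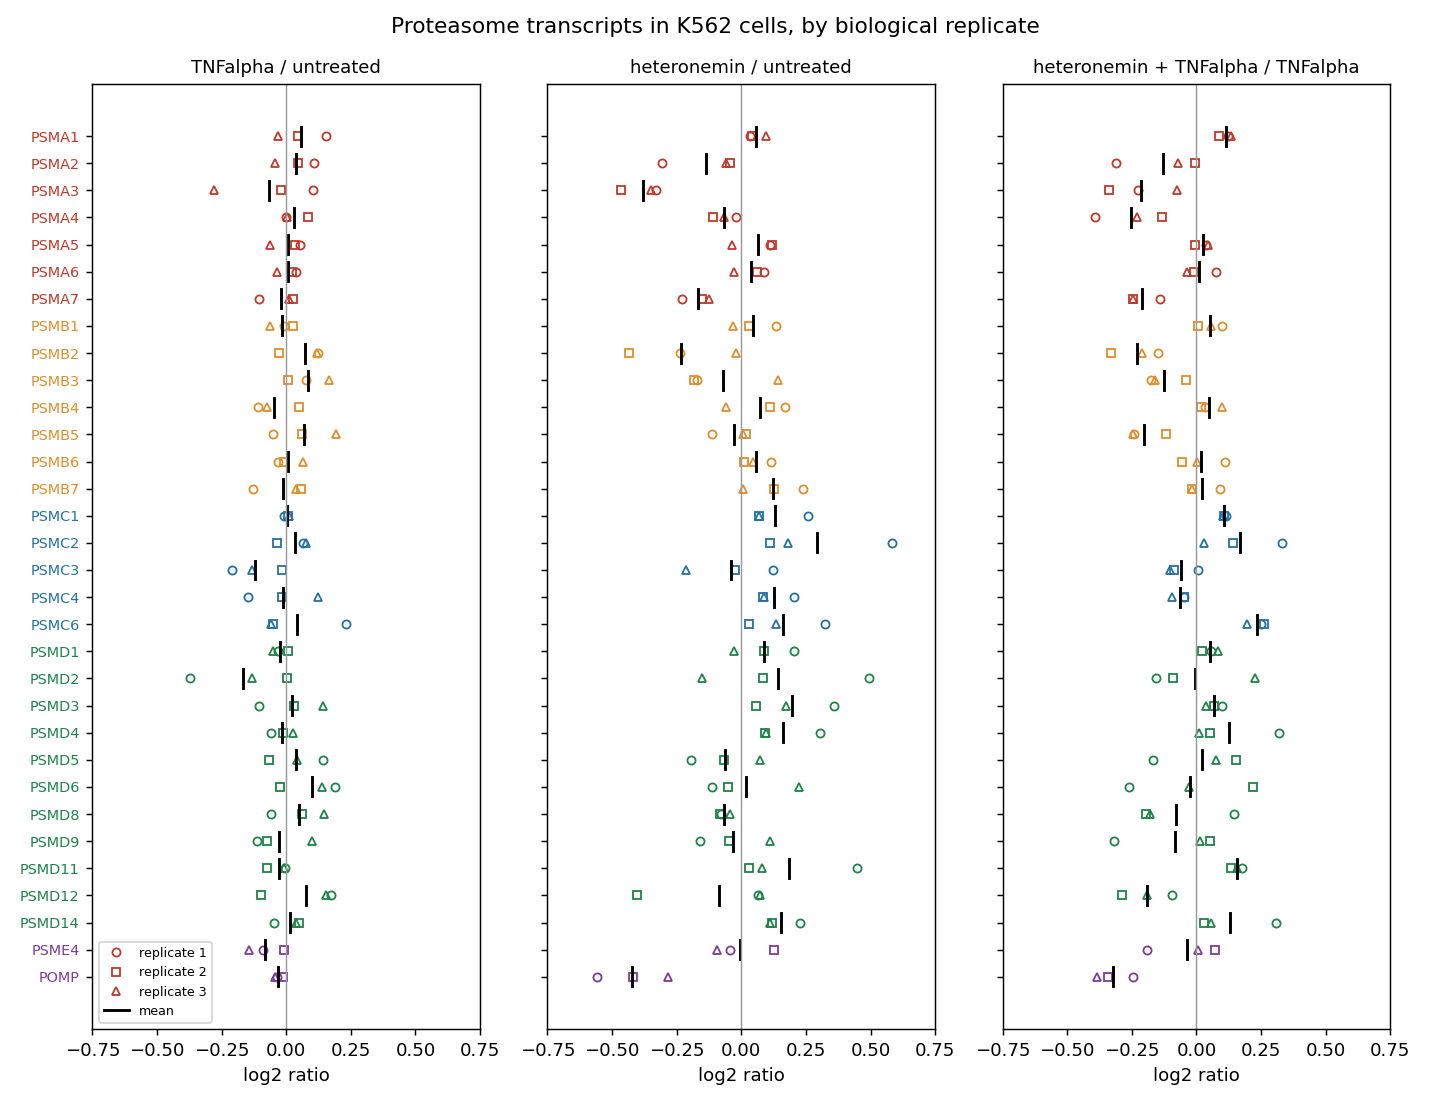
Log2 ratios of the 32 proteasome genes (rows) in the 3 comparisons (panels); circles, squares and triangles are biological replicates 1, 2 and 3, each the mean of 2 dye-exchanged arrays, and the black bar is their mean. Colours mark the alpha ring (red), beta ring (orange), ATPases (blue), other 19S genes (green) and the activator and assembly factor (purple). Values under TNFalpha cluster around 0, while POMP and PSMA3 lie below 0 in every replicate under heteronemin.

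Heteronemin alone called 2 of the 32 genes, or 6.25%, where 4.87% of all genes were called. Both were lower, POMP and PSMA3, where 2.58% of all genes were called lower. None was called higher, where 2.29% of all genes were. At an unadjusted p under 0.05 there were 7 genes on the higher side and 4 on the lower side, together 34.4% of the 32, against 18.2% of all genes. All 3 replicates were above 0 for 11 genes of the list, where 20.6% of all genes were, and below 0 for 7, where 19.2% were. The highest 95% upper bound among the 32 genes was 0.50 for PSMC2, a 1.41-fold ratio, and 30 of the 32 intervals lay within ± 0.5.

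POMP, the chaperone of core maturation, had −0.56, −0.42 and −0.29 in replicates 1 to 3. All replicates and all 6 arrays were below 0, and the arrays ran from −0.63 to −0.03 with a median of −0.50. The mean was −0.42 ± 0.14 (SD, n = 3), a 0.747-fold ratio, with a limma adjusted p of 0.00519. Without replicate 1 in any comparison the mean was −0.35, with an adjusted p of 0.0032. In RNA of whole cultures, fewer cells with a transcript and less of it per cell cannot be told apart.

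PSMA3, a subunit of the alpha ring, had −0.33, −0.47 and −0.35. The replicates lay close together, and all 6 arrays were below 0, from −0.68 to −0.17. It fell by 0.38 ± 0.07 (SD, n = 3) on the log2 scale, a 0.768-fold ratio, with a limma adjusted p of 0.0266. The other alpha genes did not pass. PSMA7, with −0.23, −0.15 and −0.13, was below 0 on all 6 arrays and had a mean of −0.17 (adjusted p = 0.0786). PSMA4 had −0.02, −0.11 and −0.07. Its mean was −0.07 (adjusted p = 0.571), but its 2 features disagreed: one had a mean of 0.06 and was above 0 in all 3 replicates, and the other had −0.19. The means of PSMA1, PSMA5 and PSMA6 were between 0.04 and 0.07, and that of PSMA2 was −0.14, or −0.05 without replicate 1.

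No beta gene was called. PSMB2, a non-catalytic subunit with 3 features whose means were all below 0, had −0.24, −0.44 and −0.02. PSMB7, the trypsin-like catalytic subunit, had 0.24, 0.13 and 0.01. Their means were −0.23 (adjusted p = 0.141) and 0.12 (adjusted p = 0.307), and without replicate 1 that of PSMB7 was 0.07. The catalytic subunits PSMB5 and PSMB6 had means of −0.03 and 0.06, PSMB1 and PSMB4 had 0.04 and 0.07, and PSMB3 had −0.07.

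The ATPases leaned to the other side of 0 without a call. PSMC2 had 0.58, 0.11 and 0.18, above 0 on all 6 arrays, with replicate 1 the highest. PSMC1 had 0.26, 0.07 and 0.07, and all 3 of its features had means above 0. The means were 0.29 (adjusted p = 0.120) and 0.13 (adjusted p = 0.170). Without replicate 1 the means were 0.15 for PSMC2 and 0.07 for PSMC1. PSMC4 and PSMC6 had means of 0.13 and 0.16, or 0.09 and 0.08 without replicate 1, and PSMC3 had −0.04.

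Among the other 19S genes PSMD3, a scaffold subunit of the lid, had 0.36, 0.06 and 0.17. PSMD14, the deubiquitinase of the lid, had 0.23, 0.12 and 0.11. Each was above 0 in all replicates, with means of 0.20 (adjusted p = 0.145) and 0.15 (adjusted p = 0.215). Without replicate 1 the mean of PSMD3 was 0.11. The remaining means of this group ran from −0.09 for PSMD12 to 0.19 for PSMD11. Without replicate 1 PSMD11 was at 0.05, and PSMD2 went from 0.14 to −0.03. PSME4, an activator that caps the core in place of the 19S particle, had −0.04, 0.12 and −0.10. Its mean was −0.0046, or 0.01 without replicate 1.

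After both agents 3 of the 32 genes were called against TNFalpha-treated cells, or 9.38%, where 6.55% of all genes were called. All were lower: POMP, PSMA4 and PSMA7, where 3.15% of all genes were called lower. None was called higher, where 3.39% of all genes were. At an unadjusted p under 0.05 there were 3 genes on the higher side and 6 on the lower side, together 28.1%, against 21.2% of all genes. All 3 replicates were above 0 for 11 genes of the list, where 18.7% of all genes were, and below 0 for 10, where 19.6% were. The highest upper bound of a 95% interval was 0.40 for PSMC6, a 1.32-fold ratio, and all 32 intervals lay within ± 0.5.

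POMP had −0.25, −0.34 and −0.39 in replicates 1 to 3. All 6 arrays were again below 0, from −0.54 to −0.09. The mean was −0.32 ± 0.07 (SD, n = 3), a 0.799-fold ratio, with a limma adjusted p of 0.0117. It was the 1 gene of the list called in both heteronemin comparisons, as 686 of all genes were in the same direction.

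PSMA4 had −0.39, −0.13 and −0.23, and PSMA7 had −0.14, −0.24 and −0.24. All replicates were below 0, but 1 of the 6 arrays was above 0 for each gene. Both features of PSMA4 were below 0 here. PSMA4 fell by 0.25 ± 0.13 (SD, n = 3) on the log2 scale, with a limma adjusted p of 0.0262. Its lowest array, at −0.90, was the replicate 1 array with the treated sample in Cy3, while the other array of that replicate was at 0.11. PSMA7 fell by 0.21 ± 0.06 (SD, n = 3), with a limma adjusted p of 0.0299. PSMA3, called under heteronemin alone, had −0.22, −0.34 and −0.07 here, with a mean of −0.21 (adjusted p = 0.151).

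PSMB5 had −0.24, −0.12 and −0.25, and PSMB2 had −0.15, −0.33 and −0.21. Both were below 0 on all 6 arrays. Their means were −0.20 (adjusted p = 0.0726) and −0.23 (adjusted p = 0.117). The catalytic PSMB6 and PSMB7 had means of 0.02 each. PSMC6 had 0.25, 0.26 and 0.20, above 0 on all 6 arrays and in each of its 4 features, with a mean of 0.24 (adjusted p = 0.0926). PSMC1 had 0.11, 0.11 and 0.10. PSMD11, a lid scaffold subunit, had 0.18, 0.13 and 0.16, and PSMD14 had 0.31, 0.03 and 0.06, without a call. The mean of PSMD14 was 0.13, or 0.04 without replicate 1. The lowest mean of the other 19S genes was −0.19, for PSMD12. PSME4 had −0.19, 0.07 and 0.0071, with a mean of −0.04, or 0.04 without replicate 1.

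The calls were few and depended on how the spread was estimated. With a trended and robust prior, or with each comparison fitted alone, 0 of the 32 genes were called in either heteronemin comparison. In the first setting 0 genes of all were called under heteronemin and 276 in cells given both agents. In the second, 0 genes of all were called. PSMA3 was not called without any 1 of the replicates of heteronemin against untreated cells (adjusted p = 0.0865, 0.176 and 0.0933). POMP was not called there without replicate 2 (adjusted p = 0.0512), nor in cells given both agents without replicate 2 or 3 (adjusted p = 0.0814 and 0.0674). In cells given both agents PSMA4 was not called without replicate 1 or 3 (adjusted p = 0.0771 and 0.0891), nor PSMA7 without replicate 2 or 3 (adjusted p = 0.156 and 0.127).

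Over all genes, replicates of the same number deviated together in the 2 heteronemin comparisons. A fit of these comparisons with the replicate number as a block called more genes. It called 5 of the 32 under heteronemin, with PSMC2 and PSMD3 higher and PSMA3, PSMB2 and POMP lower. With both agents it called 7, with PSMC6 higher and PSMA3, PSMA4, PSMA7, PSMB2, PSMB5 and POMP lower. That fit called 3154 and 3717 of all genes. With the block over all 3 comparisons PSMA7 lost its call (adjusted p = 0.0507). Leaving replicate 1 out of all comparisons called PSMA3, PSMA7 and POMP lower under heteronemin. With both agents it called PSMC6 and PSMD11 higher and PSMA4, PSMA7, PSMB5, PSMD8 and POMP lower. Of all genes, 2540 and 3397 were then called. Leaving replicate 2 or 3 out of all comparisons instead called 0 of the 32 genes, and 2 and 20 of all genes under heteronemin and 2 and 8 with both agents. POMP then had adjusted p of 0.260 and 0.0953 under heteronemin.

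No proteasome gene passed the test of whether the heteronemin effect differed between cells with and without TNFalpha. The difference, cells given both agents minus heteronemin alone, called 0 of the 32 genes, where 0% of all genes were called by limma. At an unadjusted p under 0.05 there were 2 of the 32 and 475 of all genes. All 3 replicate differences were above 0 for 3 genes of the list, where 15.5% of all genes were, and below 0 for 6, where 13.4% were. The 2 genes with the unadjusted p were PSMA4, with a difference of −0.19, and PSMC4, also at −0.19 (adjusted p = 0.999938 for both). PSMC4 had 0.21, 0.08 and 0.09 under heteronemin alone and −0.05, −0.05 and −0.09 in cells given both agents. It was the 1 gene of the list with all replicates above 0 in one comparison and all below 0 in the other. Its dye orientations differed in sign, however. Under heteronemin alone its mean was −0.06 with the treated sample in Cy5 and 0.31 with it in Cy3. With both agents these means were −0.28 and 0.15. The 95% intervals of the 32 differences reached from −0.55 to 0.42 in the fit without the replicate block, and 31 of the 32 lay within ± 0.5. The median distance from the mean to a bound was 0.206. With the block, over all or over the heteronemin comparisons only, 0 of the 32 genes were called. The means of the 32 genes in the 2 comparisons had a Pearson r of 0.859 across genes, and all genes had 0.839. Genes are not independent replicates.

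**Figure D2:**
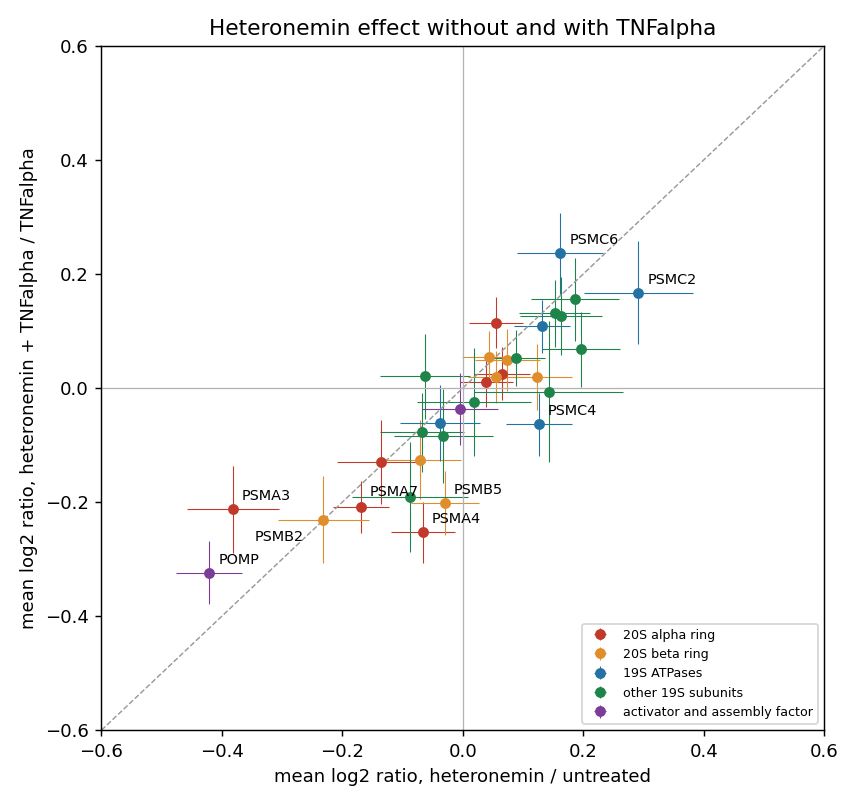
Mean log2 ratio of each of the 32 genes for heteronemin against untreated cells (horizontal axis) and for both agents against TNFalpha alone (vertical axis); lines are the standard error of the limma fit (n = 3), colours are the proteasome groups, and the dashed line marks equal values. POMP is low on both axes, PSMA3 lies further left than down, and PSMC2 and PSMC6 are at the upper right.

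By group, the medians of the alpha ring and of the 19S groups lay on opposite sides of 0 under heteronemin. In the ATPase and other 19S groups 0 genes were called, where 4.87% of all genes were. The alpha ring had a median of −0.07 over its 7 genes, with −0.02, −0.04 and −0.06 in replicates 1 to 3. In it 1 of 7 genes was called lower, where 2.58% of all genes were. This median is the mean of PSMA4, whose 2 features disagreed in sign. The ATPases had a median of 0.13 over 5 genes, with 0.26, 0.07 and 0.09, and the other 19S genes 0.09 over 11 genes, with 0.20, 0.03 and 0.08. The beta ring had 0.04 over 7 genes, with 0.11, 0.02 and 0.01. All genes on the arrays had a median of 0.0083.

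In cells given both agents the alpha ring had a median of −0.13, with −0.14, −0.0080 and −0.07 in replicates 1 to 3. In it 2 of 7 genes were called lower, where 3.15% of all genes were. The ATPases had 0.11, with 0.11, 0.11 and 0.03, the other 19S genes 0.02 and the beta ring 0.02. By dye orientation, PSMC3 and PSMC4 had means of −0.33 and −0.28 in Cy5, and of 0.21 and 0.15 in Cy3. PSMC1, PSMC2 and PSMC6 were above 0 in both orientations. The group medians were not split by dye. The median of all 32 genes was 0.0023, against 0.0081 over all genes, and under heteronemin alone it was 0.04. Counting signs over all 6 heteronemin values, PSMA2, PSMA3, PSMA4, PSMA7, PSMB2 and POMP were below 0 throughout, or 18.75% of the list against 10.7% of all genes. For PSMA4 and PSMB2 this holds for the mean of their features only. The 8 genes above 0 throughout were PSMA1, PSMC1, PSMC2, PSMC6, PSMD3, PSMD4, PSMD11 and PSMD14, 25% of the list against 9.43% of all genes. These shares describe the list and carry no test. The signs are those of replicate means, which average features and 2 dye-exchanged arrays. PSMC1, PSMC6, PSMD3 and PSMD4 each had a feature below 0 in some replicate. PSMD3 with both agents was below 0 on 3 of 6 arrays, with means of −0.07 in Cy5 and 0.20 in Cy3. PSMD11 was below 0 on 2 of 6 arrays in each heteronemin comparison. PSMC1 and PSMC6 were above 0 on all 6 arrays in both comparisons.

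**Figure D3:**
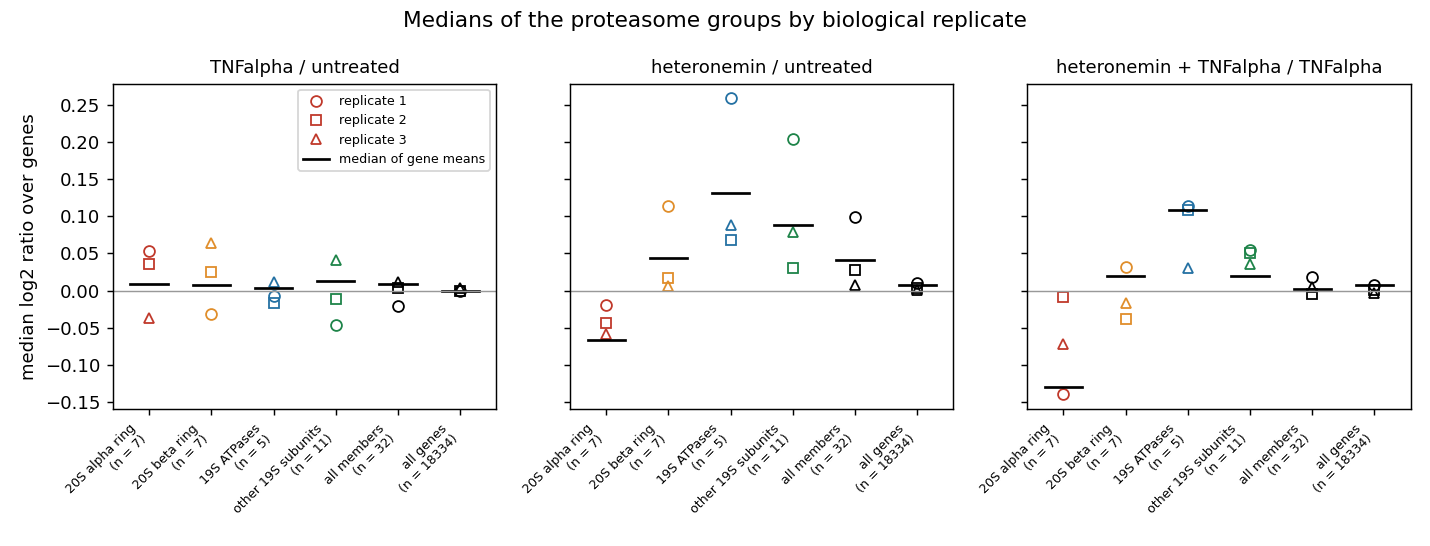
Median log2 ratio over the genes of each proteasome group, over the 32 genes and over all 18334 genes, in the 3 comparisons; symbols are biological replicates, averaged over dye-exchanged arrays, and bars are the median of the gene means. The ATPases lie at 0.13 and 0.11 and the alpha ring at −0.07 and −0.13 in the heteronemin panels, and all groups lie near 0 under TNFalpha.

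The 9 genes with a promoter match lay on both sides of 0. PSMA4 and PSMB3 had means of −0.07 and −0.07 under heteronemin and −0.25 and −0.13 in cells given both agents. PSMD3 had 0.20 and 0.07, and PSMD12 had −0.09 and −0.19. PSMD5 and PSMD9, which are chaperones of the 19S base, had −0.06 and −0.03 under heteronemin and 0.02 and −0.08 in cells given both agents. PSMD1 had 0.09 and 0.05, PSMC4 had 0.13 and −0.06, and PSME4 had −0.0046 and −0.04. POMP and PSMA3, with no match in their windows, had the lowest means of the list under heteronemin. PSMC2, also without a match, had the highest, at 0.29.

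Dye orientation moved with part of these values. For 6 genes the array with the treated sample in Cy5 was lower than its exchanged partner in all 9 pairs: PSMC2, PSMC3, PSMC4, PSMD2, PSMD3 and PSMD11. They are 18.75% of the list, against 15.4% of all genes with 1 sign of the dye difference throughout. PSMC3 had a mean of −0.48 over the Cy5 arrays and 0.41 over the Cy3 arrays of heteronemin against untreated cells. PSMD2 had −0.27 and 0.56. Each gene's 2 orientations thus had opposite signs, and the averages over both were −0.04 for PSMC3 and 0.14 for PSMD2. PSMC2 was above 0 in both orientations, at 0.20 and 0.38.

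POMP also split by dye where no heteronemin was given. Under TNFalpha it had −0.21, −0.14 and −0.28 on the Cy5 arrays of replicates 1 to 3 and 0.14, 0.11 and 0.20 on the Cy3 arrays. Under heteronemin it was below 0 in both orientations, with means of −0.51 and −0.33, and in cells given both agents with −0.39 and −0.26. PSMA3 under heteronemin had −0.47 and −0.29. With both agents PSMA4 had −0.09 in Cy5 and −0.42 in Cy3, and PSMA7 had −0.11 and −0.30. From the Cy5 arrays alone neither of these genes was called (adjusted p = 0.542 and 0.398). From the Cy3 arrays alone PSMA7 and PSMA3 were called lower there (limma adjusted p = 0.0435 and 0.0254), and PSMA4 was not (adjusted p = 0.106). POMP was called from the Cy5 arrays alone in both heteronemin comparisons. From the Cy3 arrays alone it was not (limma adjusted p = 0.123 under heteronemin and 0.185 with both agents). PSMA3 under heteronemin was called from neither orientation alone (limma adjusted p = 0.0534 in Cy5 and 0.0856 in Cy3). The Cy5 arrays alone also called PSMC3 lower in both heteronemin comparisons and PSMC4 lower with both agents. The Cy3 means of these genes were above 0. In the 2 heteronemin comparisons the Cy5 arrays called 6.08% and 9.51% of all genes, and the Cy3 arrays 3.02% and 3.78%. Each replicate holds 1 array of each orientation, so a dye effect of equal size on both arrays cancels in the averaged values. Whether the sizes were equal was not tested. The dye difference was not constant between replicates. PSMD2 under heteronemin had −0.31 in Cy5 and 1.30 in Cy3 in replicate 1, and −0.05 and 0.22 in replicate 2. For POMP the Cy5 array was the lower one in 7 of 9 pairs.

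**Figure D4:**
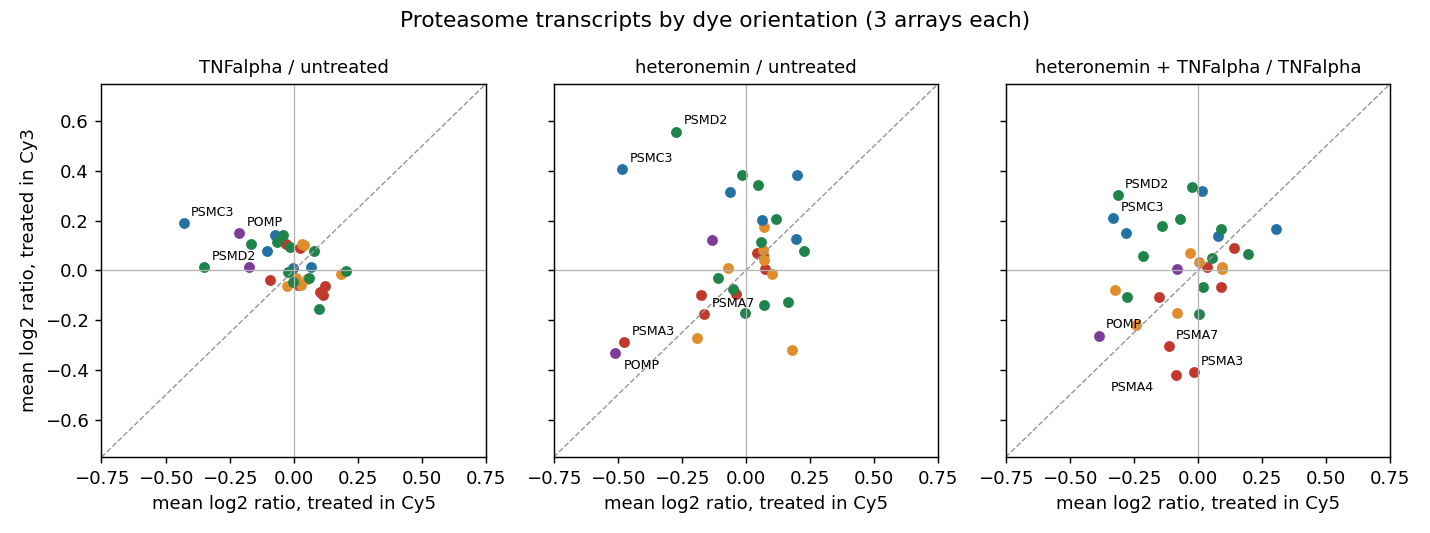
Mean log2 ratio of each of the 32 genes over the 3 arrays with the treated sample in Cy5 (horizontal axis) and the 3 arrays with it in Cy3 (vertical axis), by comparison; colours are red for the alpha ring, orange for the beta ring, blue for ATPases, green for other 19S genes and purple for POMP and PSME4. PSMC3 and PSMD2 lie far from the dashed line of equal values at the upper left, while POMP and PSMA3 are at the lower left under heteronemin.

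Genes around the proteasome were read from further lists. Of 7 further 26S subunits and partners, 4 proteasome assembly chaperones and 3 ubiquitin or ubiquitin-activating genes, 0 were called in any comparison. Of all genes 0% were called under TNFalpha, 4.87% under heteronemin and 6.55% with both agents. Their means below are those of the listed genes. Means of these listed genes under heteronemin ran from −0.18 for the deubiquitinase UCHL5 to 0.14 for the chaperone PSMG1.

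The immunoproteasome list holds the cytokine-inducible beta subunits, the PA28 activators and the inhibitor PSMF1. Under TNFalpha 0 of its 7 genes were called, where 0% of all genes were. The means of PSMB8, PSMB9 and PSMB10 were −0.03, 0.08 and 0.01. Under heteronemin 1 of 7 was called, lower, where 2.58% of all genes were called lower. PSMB10 had −0.24, −0.37 and −0.22, with a mean of −0.28 ± 0.08 (SD, n = 3) and a limma adjusted p of 0.0365. In cells given both agents it had −0.01, −0.27 and −0.29 and was not called (adjusted p = 0.107). PSME3, which forms the nuclear PA28 gamma activator, had means of −0.30 and −0.33 in the 2 comparisons (adjusted p = 0.154 and 0.103). PSMB8 and PSMB9 had means of −0.02 and −0.09 under heteronemin and −0.11 and −0.17 with both agents. The PA28 subunit PSME1 had −0.02 and −0.10, and its partner PSME2 had 0.07 and 0.04.

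The list of NRF1 activation holds NFE2L1, its relatives, the enzymes that process it and its small MAF partners, 9 genes in all. NFE2L1 had −0.02, 0.18 and 0.13 under heteronemin and 0.03, 0.24 and 0.09 in cells given both agents. Its means of 0.10 and 0.12 were not called (adjusted p = 0.435 and 0.296). NFE2L2, which encodes NRF2, had −0.02 and 0.11. The 1 gene called, in each heteronemin comparison, was MAFG, where 4.87% and 6.55% of all genes were called. MAFG encodes a small MAF protein that pairs with these factors. It had 0.54, 0.75 and 0.70 under heteronemin, and 0.62, 0.92 and 0.66 in cells given both agents. It rose by 0.66 ± 0.11 and 0.73 ± 0.16 (SD, n = 3 each; limma adjusted p = 0.00186 and 0.00116). MAFF, another small MAF gene, had means of 0.54 and 0.43 (adjusted p = 0.131 and 0.199), and the ubiquitin ligase SYVN1 had 0.11 and 0.15 (adjusted p = 0.217 and 0.0646). DDI2, the protease that cleaves NRF1, had 0.10 and −0.21. The lowest means were those of NFE2L3, which encodes the related factor NRF3. It had −1.07, −0.09 and −0.11 under heteronemin and −1.16, −0.28 and −0.11 with both agents, with means of −0.42 and −0.51 (adjusted p = 0.425 and 0.279). Under TNFalpha NFE2L3 had 1.02, 0.50 and 0.27, with a mean of 0.60 (adjusted p = 0.999968). The abundance of NRF1 protein and its processing were not measured.

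Among 14 genes of the p97 segregase and of shuttle factors, which bring ubiquitinated proteins to the proteasome, 2 were called, and both were higher in both comparisons, where 2.29% and 3.39% of all genes were called higher. ZFAND5, a proteasome-binding zinc finger protein, had 0.74, 0.63 and 0.62 under heteronemin, and ZFAND2A, its arsenite-inducible relative, had 0.56, 0.63 and 0.69. They rose by 0.66 ± 0.07 and 0.63 ± 0.06 (SD, n = 3; limma adjusted p = 0.00073 and 0.00188). With both agents ZFAND5 had a mean of 0.61 ± 0.12 and ZFAND2A of 0.58 ± 0.16. UBXN4, a p97 adaptor, had 0.22 and 0.17 and missed the threshold (adjusted p = 0.0513 and 0.0945). NPLOC4, another adaptor, had 0.12 and 0.08. The lowest means were those of the shuttle factor UBQLN2, at −0.42 and −0.43 (adjusted p = 0.217 and 0.174). At an unadjusted p under 0.05, 1 gene of the 14 was lower under heteronemin and 2 with both agents, against 6 and 4 higher. Together these were 50% and 42.9% of the list, against 18.2% and 21.2% of all genes.

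Of 17 heat shock and aggregate response genes 1 was called, 5.88% of the list where 4.87% and 6.55% of all genes were. It was HSPH1, a chaperone of the HSP110 family. It had 0.41, 0.24 and 0.28 under heteronemin and 0.45, 0.35 and 0.24 in cells given both agents. Its means were 0.31 ± 0.09 and 0.34 ± 0.10 (SD, n = 3; limma adjusted p = 0.0171 and 0.0094). DNAJB2 had 0.19 in both comparisons (adjusted p = 0.0594 and 0.055), the co-chaperone BAG3 had 0.18 and 0.19, and the small heat shock gene HSPB1 had −0.07 and −0.12. The lowest means were −0.12 and −0.21, those of the co-chaperone BAG1. The classical heat shock genes split by replicate. HSPA1A had 0.91, −0.36 and −0.75 under heteronemin and 0.73, −0.54 and −0.78 in cells given both agents, and DNAJB1 had 1.03, −0.21 and −0.67, and 1.02, −0.46 and −0.59. Replicate 1 lay high and replicates 2 and 3 lay low in both genes and both comparisons, and neither gene was called. In the same replicates POMP had one sign throughout.

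**Figure D5:**
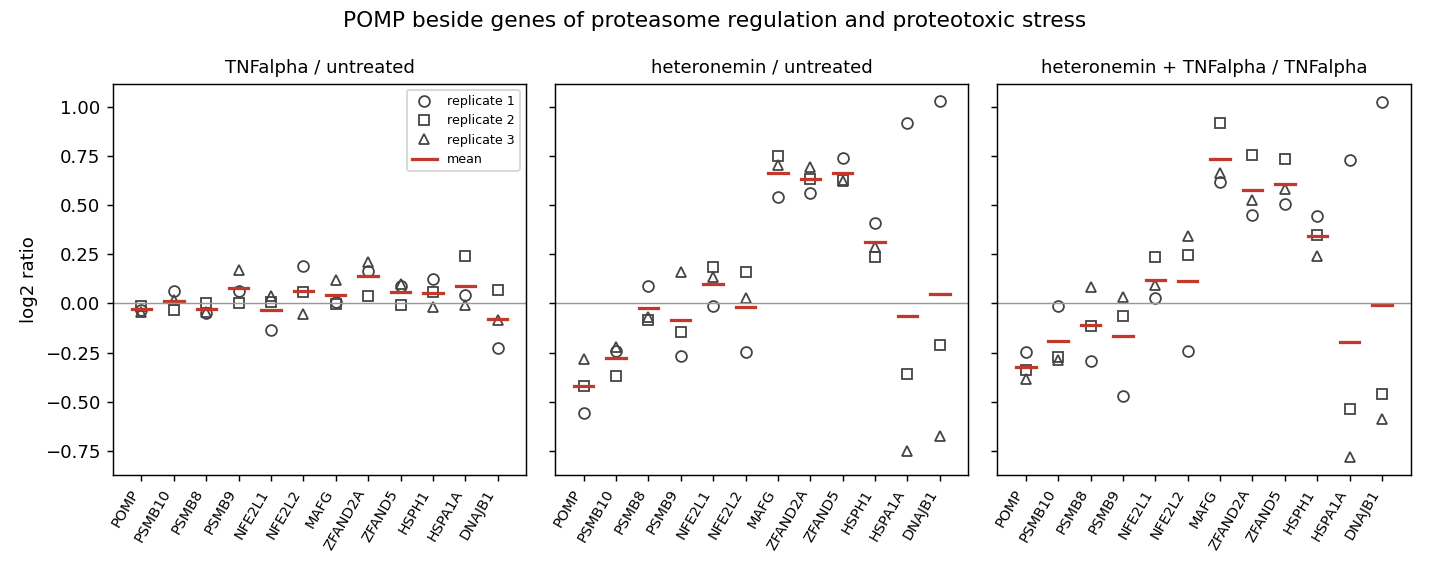
Log2 ratios of POMP and of 11 genes around the proteasome in the 3 comparisons; symbols are biological replicates and the red bar is their mean (n = 3). MAFG, ZFAND2A and ZFAND5 lie above 0.4 in every replicate of both heteronemin panels, POMP lies below 0, and HSPA1A and DNAJB1 split between replicate 1 and replicates 2 and 3.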

How the data were processed

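The authors made the deposited log2 ratios with limma, per the submitters' processing notes; the version, background correction, normalization and any scaling between arrays were not given in the sources used here. Array medians lay between −0.0145 and 0.0669. The direction, treated over control, was taken from the array titles. Dye-exchanged pairs correlated positively over all genes (0.0331 to 0.513), most weakly in replicate 1 under TNFalpha. That correlation bears on a common orientation of the 2 arrays and cannot tell its direction. Over the 32 genes that correlation ran from −0.689, in replicate 2 under TNFalpha, to 0.532, in replicate 2 under heteronemin. It was also below 0 in replicate 3 under TNFalpha (−0.279) and under heteronemin (−0.0909). Without intensities, depth and levels are unknown, and precision is limited by the 3 biological replicates of each comparison, on 18 arrays in all.

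The 31332 features with 1 gene symbol were averaged to 18334 genes, and the 2 arrays of a replicate were then averaged. Features with several genes (93) or without one (13795) were left out. limma 3.58.1 (R 4.3.3) estimated 1 mean for each comparison from 9 values a gene, with a pooled spread, empirical Bayes moderation and two-sided Benjamini-Hochberg adjusted p. The difference between the heteronemin comparisons was a contrast of that fit. The fit was tested on simulated data. The design text calls the replicates biological. Deviations of same-numbered replicates correlated at 0.781, 0.626 and 0.622 between the heteronemin comparisons, so these numbers pair the samples. With the TNFalpha comparison the correlations were −0.326 to 0.0306. Values are printed for called members, for the 2 smallest p of each group and comparison, and for a few genes of each further list with a call. UCHL5, PSMG1, PSMC4, NFE2L3, UBQLN2, BAG1 and members given by range, sign, dye or promoter match were named after their values were seen. The members and lists were chosen with earlier results of these data known. The alternatives tried were the block, other priors, scalings, feature rules, dye subsets and left-out replicates.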

Additional observations from a re-analysis of the deposited data

How the results depend on the processing

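None of the settings tried called a proteasome gene under TNFalpha or in the difference between the heteronemin comparisons, and no setting turned the sign of POMP, PSMA3, PSMA4 or PSMA7 in a comparison where it was called. The cause of the changes below was not tested. Under TNFalpha, 7 genes of all were called with the replicate block, 6 with each comparison fitted alone, 32 with 18 separate arrays, 4 after scaling, 13 after quantile normalization, and 4 each from the Cy5 and the Cy3 arrays. Fitted alone, the heteronemin comparisons called 0 members and 0 genes. The trended and robust prior called 0 members in both, with 0 and 276 genes. The 18 separate arrays called 4 and 5 members, with 1731 and 2173 genes. The Cy3 arrays called 0 members under heteronemin, with 553 genes. In cells given both agents they called 2 members, with 693 genes. The median of the 32 genes was 0.024 there, against −0.028 from the Cy5 arrays. Settings chosen after seeing the data were the fits of the heteronemin comparisons alone and leaving replicate 2 or 3 out of all comparisons. With the replicate block such a fit called 5 and 7 members, with 3154 and 3717 genes; without a replicate effect it called 1 and 0 members, with 214 and 397 genes. The block over all 3 comparisons moved no count of members past 1.5 times. Leaving out replicates called 0 to 3 members under heteronemin (2 to 2540 genes), 0 to 7 in cells given both agents (2 to 3397 genes), 0 to 62 genes under TNFalpha and 0 to 3 genes in the difference. The median in cells given both agents was then −0.015 to 0.025. Leaving replicate 2 or 3 out of all comparisons left 0 members called.

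Signs turned among values that were not called. From the Cy3 arrays under TNFalpha, PSMB3 was −0.016, PSMC3 0.19, PSMD2 0.014, PSMD6 −0.0020, PSME4 0.013 and POMP 0.15. Under heteronemin the Cy3 arrays gave PSME4 0.12, PSME1 0.044 and PSMB8 0.21, and in cells given both agents PSME4 0.0075, NFE2L2 −0.028 and DNAJB1 0.082. The Cy5 arrays gave PSMB9 0.00097, NFE2L2 0.0050, NPLOC4 −0.078 and DNAJB1 −0.12 under heteronemin, and PSMD11 −0.023 and NPLOC4 −0.10 in cells given both agents. Under heteronemin scaling gave NFE2L2 0.012 and DNAJB1 −0.14, quantile normalization gave 0.031 and −0.11, and the median over features gave HSPA1A 0.061. Leaving out replicates, PSMA3 ran from −0.15 to 0.041 and PSMC6 from −0.054 to 0.091 under TNFalpha. Under heteronemin PSME4 ran from −0.069 to 0.041, PSME1 from −0.081 to 0.018, PSMB8 from −0.078 to 0.0099 and PSMB9 from −0.21 to 0.0055. NFE2L2 ran there from −0.11 to 0.094, HSPA1A from −0.56 to 0.28 and DNAJB1 from −0.44 to 0.41. In cells given both agents PSME4 ran from −0.091 to 0.039, HSPA1A from −0.66 to 0.096 and DNAJB1 from −0.53 to 0.28.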
